A study of Homo sapiens with 4 samples.

Results

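The transcripts of the mitochondrial genome comprised the 37 genes that the files place on chromosome MT, out of 58735 genes listed. They were chosen by that label alone and grouped by the biotype given beside them, which made 13 protein-coding genes, 2 ribosomal RNA (rRNA) genes and 22 transfer RNA (tRNA) genes. RNA sequencing was carried out on cells of 769-P, established from a renal clear cell carcinoma, whose cells all carried a stably transfected, inducible short hairpin RNA against USP35 and were kept in puromycin. In the doxycycline group (2 libraries) the agent was given at 1 μg/ml for 4 days, and the other group (2 libraries) was left untreated. Labels do not say whether the libraries of a group were separate cultures, so p-values measure the spread between these libraries only, which may be technical. Cells that received the agent but lacked the hairpin were not analysed here, so effects of the agent and of the hairpin cannot be told apart.

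Values are FPKM (fragments counted per unit of gene length and of library size), and whole read numbers were recovered from them. The libraries held between 16319640 and 18764546 reads. The library size behind the FPKM was 107.5% of the recovered reads in doxycycline replicate 1 and between 97.2% and 101.0% of them in the other three. USP35, the gene the hairpin targets, stood at 2.11 and 2.54 FPKM in doxycycline replicates 1 and 2, against 3.31 and 4.19 FPKM in untreated replicates 1 and 2. The groups did not overlap, and the difference did not pass the test over all genes (limma log2 difference -0.51, standard error 0.20, adjusted p = 0.256). Of 8 renal and clear cell carcinoma markers, 6 exceeded 1 FPKM in every library, among them PAX8 and PAX2. CA9 and NDUFA4L2 stayed below 0.1 FPKM. The 4 markers of leukocytes, endothelium and distal nephron summed to at most 0.027 FPKM in any library.

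The human mitochondrial genome is a small circle that is transcribed from both strands into long precursor RNAs. Transfer RNAs sit between most of the other genes, and their excision releases the individual messenger and ribosomal RNAs, an arrangement known as tRNA punctuation. The proteins encoded are core subunits of respiratory complexes I, III and IV and of the ATP synthase (complex V), and both RNAs of the mitochondrial ribosome come from the same circle. Most genes are read from the heavy strand and are annotated on the plus strand, while MT-ND6 and 8 tRNAs are read from the light strand and annotated on the minus strand. Doxycycline belongs to the tetracyclines, antibiotics that bind bacterial ribosomes and are also known to hinder translation on mitochondrial ribosomes.

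Mitochondrial transcripts made up very different parts of the 2 doxycycline libraries. They took 7.44% and 14.6% of all reads in doxycycline replicates 1 and 2, against 8.21% and 8.50% in untreated replicates 1 and 2. One doxycycline library thus lay below both untreated libraries and the other far above them, and the groups overlapped (exact permutation p = 1.0, two-sided). What the doxycycline libraries shared was the direction of some differences in the make-up of these reads. A larger portion came from rRNA genes and a smaller one from protein-coding and minus-strand genes. The rRNA and protein-coding shares nearly add up to the whole, so the lower protein-coding share mostly restates the higher rRNA share. Most minus-strand reads came from MT-ND6, itself a protein-coding gene. The tRNA share lay on either side of the untreated pair, at 0.432% and 0.327% with doxycycline, against 0.406% and 0.420%. The rRNA share of doxycycline replicate 1, for instance, had a 95% Wilson interval of 28.6% to 28.8%, which covers counting error only. In RNA from whole cultures, fewer cells of a kind and less RNA per cell cannot be told apart.

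**Figure D1:**
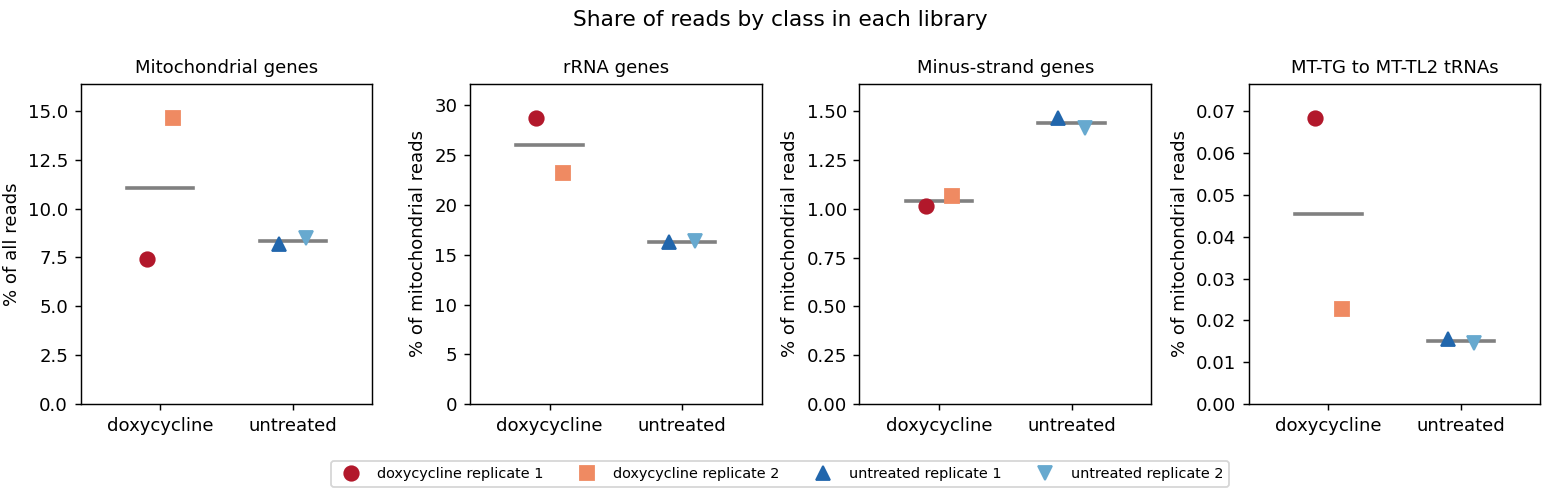
Share of reads by class in each library. Points are single libraries, grey lines are group means, and each vertical axis starts at 0 and gives the percentage of all reads (first panel) or of mitochondrial reads (other panels). The rRNA share was 28.7% and 23.2% in the doxycycline libraries and 16.3% and 16.4% in the untreated libraries.

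Both rRNA genes stood higher in both doxycycline libraries than in both untreated ones, as did 24.3% of all genes. Selection of polyadenylated RNA or removal of rRNA sets how much rRNA and tRNA a library holds. Whether either was done is not given in the sources used here, so rRNA and tRNA shares need not be those of the cells, and its part in the differences was not tested. MT-RNR1 encodes the RNA of the small ribosomal subunit and MT-RNR2 that of the large subunit. MT-RNR1 (MT, 648 to 1601, plus strand, GRCh38) stood at 2938 and 3331 FPKM in doxycycline replicates 1 and 2, against 1432 and 1287 FPKM in untreated replicates 1 and 2. The doxycycline libraries were close to each other and both far above the untreated ones, with means of 3134 ± 278 and 1359 ± 102 FPKM (SD, n = 2 each), a ratio of 2.31. MT-RNR2 (1671 to 3229) stood at 10951 and 20289 FPKM with doxycycline, against 7923 and 8056 FPKM in untreated cells. Its levels also separated the groups, but doxycycline replicate 2 exceeded replicate 1 by a ratio of 1.85. Over all 4 libraries neither gene passed the test (limma adjusted p = 0.116 for MT-RNR1, log2 difference 1.20, and 0.292 for MT-RNR2, log2 difference 0.90).

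Within the mitochondrial reads, which do not depend on how a library was scaled, the rRNA genes took 28.7% and 23.2% in doxycycline replicates 1 and 2, against 16.3% and 16.4% in untreated replicates 1 and 2. The untreated libraries were nearly equal and the doxycycline libraries both lay well above them (exact permutation p = 0.33, two-sided, the smallest that 2 against 2 libraries allow). Per length, MT-RNR2 exceeded MT-ND1, the next messenger RNA on the same strand, by ratios of 4.91 and 5.66 with doxycycline, against 2.63 and 2.68 in untreated cells. The ratio of MT-RNR2 to MT-RNR1 did not separate the groups. It was 3.73 and 6.09 with doxycycline and 5.53 and 6.26 in untreated cells.

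Protein-coding transcripts moved in opposite directions in the 2 doxycycline libraries. Of the 13 genes, 11 lay below the untreated mean in doxycycline replicate 1, while all 13 lay above it in replicate 2. The median log2 difference from the untreated pair was -0.43 in replicate 1 and 0.76 in replicate 2, beside medians of -0.02 and -0.03 over all 12029 genes tested. Only MT-ND2 and MT-ATP8 were higher in both doxycycline libraries than in both untreated ones, and none was lower in both, beside 24.3% of all genes higher and 28.9% lower. Over all 4 libraries 0 of 13 passed (limma, lowest adjusted p = 0.228), and 1 had an unadjusted p under 0.05, beside 18.3% of all genes.

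**Figure D2:**
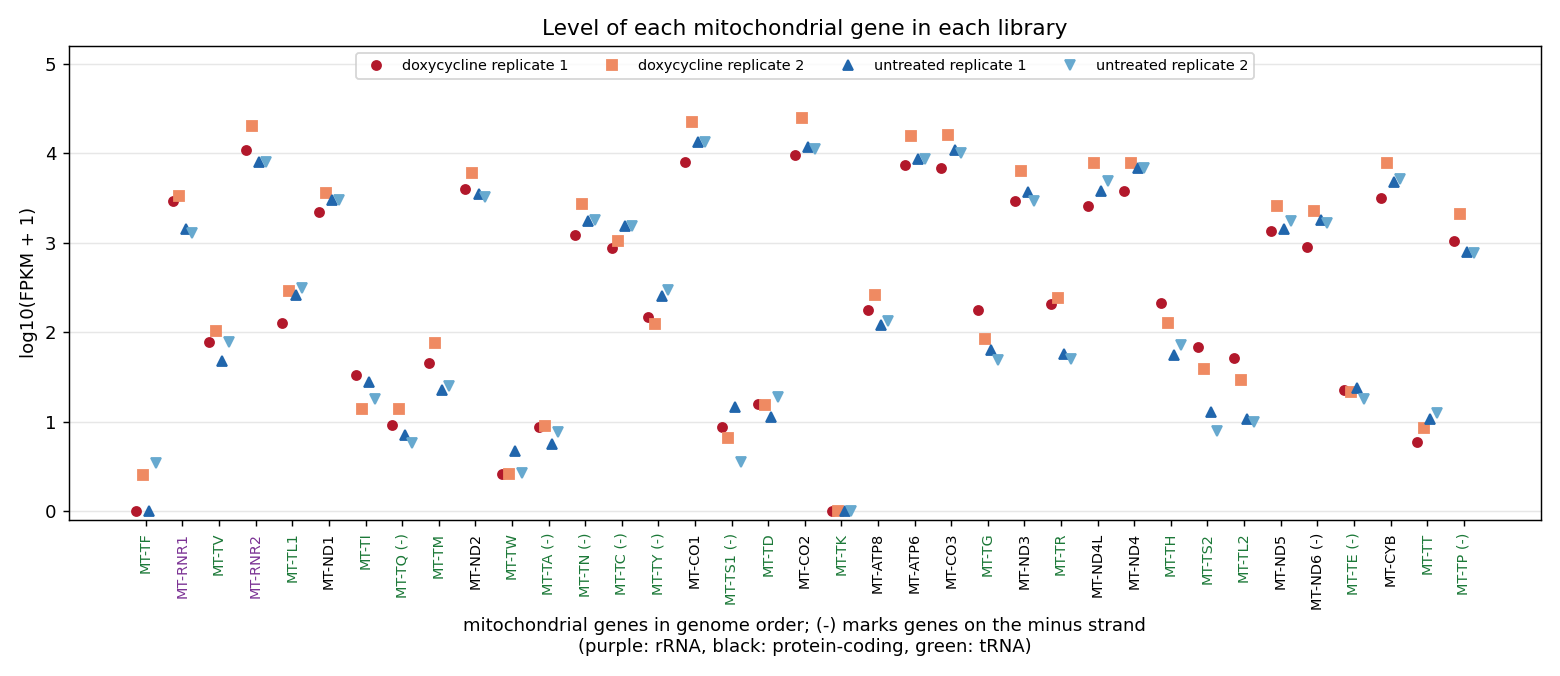
Level of each of the 37 genes in each library as log10(FPKM + 1), with genes in the order of the genome. Most protein-coding genes have doxycycline replicate 2 at the top and replicate 1 at the bottom with the untreated libraries between them, whereas both doxycycline libraries stand above the untreated ones for MT-RNR1, MT-TR, MT-TS2 and MT-TL2.

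MT-CO1 and MT-CO2, of complex IV, were the most abundant messenger RNAs per length in every library. MT-CO1, which encodes the catalytic subunit of cytochrome c oxidase, stood at 7937 and 22589.5 FPKM in doxycycline replicates 1 and 2, against 13285 and 13447 FPKM in untreated cells. MT-CO2, which encodes the subunit that accepts electrons from cytochrome c, stood at 9628 and 24961 FPKM with doxycycline, against 11874 and 11245 FPKM. MT-CO3, the third core subunit, stood at 6758 and 15917 FPKM with doxycycline and 10994 and 9967 FPKM without. For all 3 genes the untreated pair lay between the doxycycline libraries, so a group mean describes neither library.

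Complex V transcripts followed the same course for MT-ATP6 and differed for MT-ATP8. MT-ATP6, part of the proton channel, stood at 7429 and 15406 FPKM in doxycycline replicates 1 and 2, against 8729 and 8578 FPKM in untreated cells. MT-ATP8, a short membrane subunit, stood at 177 and 262 FPKM with doxycycline, against 118 and 131 FPKM, so that its groups did not overlap. The genes overlap by 46 bases, and MT-ATP8 rested on 687 and 992 reads with doxycycline and 387 and 471 reads without. How reads in the overlap were counted is not given in the sources used here.

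MT-CYB, the cytochrome b of complex III, stood at 3157 and 7734 FPKM in doxycycline replicates 1 and 2, against 4729.5 and 5097 FPKM in untreated cells. It again bracketed the untreated pair.

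Among the 7 complex I genes, the level of MT-ND2 was 3938 and 6008 FPKM with doxycycline, against 3471 and 3236 FPKM in untreated cells, and it alone of the 7 was higher in both doxycycline libraries. MT-ND4, by contrast, stood at 3829 and 7859 FPKM with doxycycline, against 6791 and 6823 FPKM. It had the lowest ratio of doxycycline replicate 1 to the untreated mean among the plus-strand complex I genes (0.563) and the lowest of replicate 2 among all 13 protein-coding genes (1.15). MT-ND1 stood at 2229 and 3583 FPKM against 3013 and 3011 FPKM, and MT-ND5 at 1336 and 2562 FPKM against 1408 and 1741 FPKM. MT-ND3 stood at 2954 and 6382 FPKM against 3711 and 2906 FPKM. MT-ND4L, which overlaps MT-ND4 by 7 bases, stood at 2593 and 7795 FPKM against 3811 and 4860.3 FPKM. All of these except MT-ND2 bracketed the untreated pair or overlapped it.

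MT-ND6 is the only protein-coding gene on the minus strand. It stood at 895 and 2239 FPKM in doxycycline replicates 1 and 2, against 1780.2 and 1677 FPKM in untreated cells, again on either side of the untreated pair. Set against MT-CYB, a near neighbour on the other strand, it was lower in both doxycycline libraries, at ratios of 0.284 and 0.289, against 0.376 and 0.329 in untreated cells (exact permutation p = 0.33). The labels do not say whether the libraries keep strand, so reads of a gene and of the RNA opposite to it cannot be told apart.

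Shares within the reads of the 13 genes were also compared. They add up to the whole, so a larger share of one gene lowers the shares of others. For 5 genes both doxycycline libraries held a larger share than both untreated ones, for 3 genes a smaller share, and for 5 genes they overlapped. MT-ND4 took 10.8% and 9.45% of these reads in doxycycline replicates 1 and 2, against 13.3% and 13.4% in untreated cells. MT-CO2 took 13.4% and 14.9% with doxycycline, against 11.5% and 11.0%. MT-ND2 took 8.37% and 5.46% with doxycycline, against 5.14% and 4.81%, and MT-ATP6 took 10.3% and 9.15%, against 8.45% and 8.34%. MT-ATP8 and MT-ND3 were the other genes with a larger share, and MT-CO3 and MT-ND6 the other genes with a smaller one. With 2 libraries a group each of these exact tests gave at best p = 0.33, or 0.541 after Benjamini-Hochberg adjustment over the 13 genes. Shares that do not differ would thus often separate the groups. The number of genes expected to do so was not computed, so these counts are a description.

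**Figure D3:**
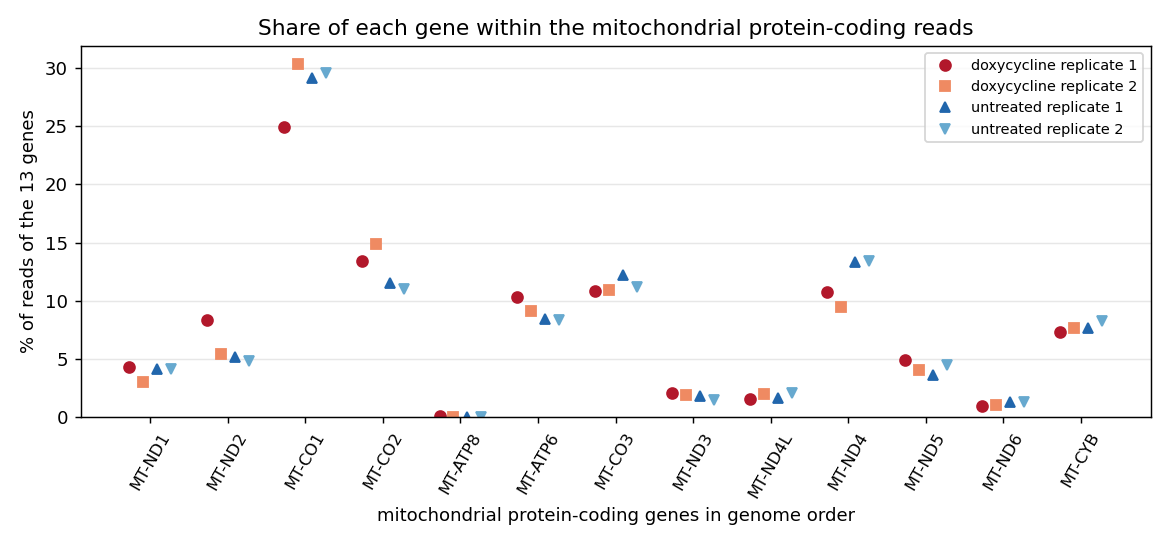
Percentage of the reads of the 13 mitochondrial protein-coding genes that each gene took, by library, with genes in genome order and the axis starting at 0. The doxycycline libraries lie below the untreated ones for MT-ND4 and above them for MT-CO2 and MT-ND2.

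By complex, the 7 complex I genes together took 33.0% and 26.9% of protein-coding reads in doxycycline replicates 1 and 2, against 30.9% and 31.6% in untreated cells. The 3 complex IV genes took 49.2% and 56.2% with doxycycline, against 52.9% and 51.7%. Both shares lay on either side of the untreated pair. MT-CYB took 7.35% and 7.70% with doxycycline, against 7.67% and 8.30%. The complex V genes took 10.4% and 9.20% with doxycycline, against 8.48% and 8.38%, and were the only complex whose groups did not overlap (exact permutation p = 0.33).

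The 4 largest log2 differences among the 35 members tested were those of MT-TS2, MT-TR, MT-TL2 and MT-TH, tRNA genes on the plus strand between MT-CO3 and MT-ND5, and MT-TG, which also lies there, was higher too. In genome order they are MT-TG (glycine), MT-TR (arginine), MT-TH (histidine), MT-TS2 (serine, AGU/C codons) and MT-TL2 (leucine, CUN codons). All 5 were higher in both doxycycline libraries than in both untreated ones, as were 24.3% of all genes. Choosing the largest differences favours such a separation, so it is a description. Their genes abut their neighbours with 0 bases between, so that MT-TG fills the gap between MT-CO3 and MT-ND3, MT-TR that between MT-ND3 and MT-ND4L, and the other three stand in a row between MT-ND4 and MT-ND5. Their sequences are shown 5′ to 3′ as DNA, with the anticodon in capitals, because these genes lie together on the genome and include the 4 largest differences. Below them stand MT-TC (cysteine) and MT-TY (tyrosine), neighbours on the minus strand that were lower in both doxycycline libraries.
MT-TG, 9991 to 10058, plus strand: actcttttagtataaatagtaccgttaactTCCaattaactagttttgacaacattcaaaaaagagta
MT-TR, 10405 to 10469, plus strand: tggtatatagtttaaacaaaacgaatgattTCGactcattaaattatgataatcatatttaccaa
MT-TH, 12138 to 12206, plus strand: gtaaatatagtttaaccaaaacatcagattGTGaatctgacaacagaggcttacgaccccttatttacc
MT-TS2, 12207 to 12265, plus strand: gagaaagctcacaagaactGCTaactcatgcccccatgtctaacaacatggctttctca
MT-TL2, 12266 to 12336, plus strand: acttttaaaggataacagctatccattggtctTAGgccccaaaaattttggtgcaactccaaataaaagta
MT-TC, 5761 to 5826, minus strand: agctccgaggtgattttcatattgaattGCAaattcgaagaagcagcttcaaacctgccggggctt
MT-TY, 5826 to 5891, minus strand: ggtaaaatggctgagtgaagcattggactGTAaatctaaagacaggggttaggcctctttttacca
The sequences are the GENCODE release 29 transcripts on GRCh38, and the coordinates are those of chromosome MT. The genes are 59 to 71 bases long, and a read or fragment longer than a gene must reach into its neighbours.

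Among these 5 genes, MT-TR was the most alike in the doxycycline libraries. It stood at 204 and 237 FPKM in doxycycline replicates 1 and 2, against 56.2 and 49.5 FPKM in untreated replicates 1 and 2, a ratio of means of 4.17. The read numbers behind these levels were 249 and 282 with doxycycline and 58 and 56 without. Its log2 difference of 2.04 had a standard error of 0.23 and the lowest adjusted p of all 35 members tested (limma adjusted p = 0.0573), just short of the threshold of 0.05.

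The 3 adjacent tRNA genes were higher in replicate 1 than in replicate 2. MT-TS2 stood at 67.6 and 37.9 FPKM in doxycycline replicates 1 and 2, against 11.8 and 6.81 FPKM in untreated cells, on 75 and 41 reads against 11 and 7. MT-TL2 stood at 50.2 and 28.5 FPKM with doxycycline, against 9.77 and 8.90 FPKM, on 67 and 37 reads against 11 and 11. MT-TH stood at 210.5 and 126 FPKM with doxycycline, against 54.8 and 70.7 FPKM. In each case the lower doxycycline library was still above the higher untreated one. The limma log2 differences over all 4 libraries were 2.37, 1.91 and 1.37, with adjusted p = 0.0595, 0.0613 and 0.119.

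MT-TG stood at 176 and 82.7 FPKM in doxycycline replicates 1 and 2, against 62.1 and 47.3 FPKM in untreated cells (limma log2 difference 1.14, adjusted p = 0.218). Taken as 1 group, the 5 genes held 889 and 622 reads with doxycycline, against 207 and 215 in untreated cells. They made up 0.0684% and 0.0227% of mitochondrial reads with doxycycline, against 0.0155% and 0.0147%. Of all tRNA reads they were 15.8% and 6.93%, against 3.81% and 3.49%. These genes were put together after their values were seen, so the sums are a description.

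The messenger RNAs on either side of these tRNAs did not share the pattern of most of them. MT-CO3, MT-ND3, MT-ND4L, MT-ND4 and MT-ND5 all had levels in doxycycline replicate 1 below those of replicate 2, whereas MT-TG, MT-TH, MT-TS2 and MT-TL2 were higher in replicate 1. MT-TG, for instance, had a ratio of replicate 2 to replicate 1 of 0.470, while MT-ND3, next to it, had 2.16. MT-TR was higher in replicate 2, with a ratio of 1.16, the same direction as MT-ND3 and MT-ND4L beside it.

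Other plus-strand tRNA genes varied. MT-TM, for methionine, stood at 43.8 and 73.9 FPKM in doxycycline replicates 1 and 2, against 21.3 and 23.6 FPKM in untreated cells, a ratio of means of 2.62 (limma log2 difference 1.30, adjusted p = 0.111). MT-TV, the valine tRNA between the rRNA genes, stood at 77.1 and 103 FPKM with doxycycline, against 46.6 and 75.7 FPKM. MT-TL1, the other leucine tRNA, follows MT-RNR2 directly and holds a binding site of the termination factor MTERF1. It stood at 127 and 287 FPKM with doxycycline, against 261 and 312 FPKM, so the groups overlapped. MT-TM and MT-TV were thus higher in both doxycycline libraries, and MT-TL1 was low in replicate 1 alone.

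Most tRNA reads came from 4 genes on the minus strand, MT-TN (asparagine), MT-TC, MT-TY and MT-TP (proline), which took 75.9% and 85.0% of them with doxycycline and 87.2% and 86.4% in untreated cells. MT-TC stood at 880.2 and 1042 FPKM in doxycycline replicates 1 and 2, against 1534 and 1553 FPKM in untreated cells. MT-TY, whose gene shares 1 base with MT-TC, stood at 145 and 122 FPKM with doxycycline, against 252 and 291 FPKM. Both were lower in both doxycycline libraries, with log2 differences of -0.69 and -1.02 that did not pass over all 4 libraries (limma adjusted p = 0.257 and 0.125).

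MT-TN and MT-TP went other ways. MT-TP stood at 1051 and 2109.5 FPKM with doxycycline, against 777 and 761 FPKM in untreated cells, and so was higher in both doxycycline libraries (limma log2 difference 0.95, adjusted p = 0.271). MT-TN stood at 1205 and 2692 FPKM with doxycycline, against 1751 and 1812 FPKM, on either side of the untreated pair like the protein-coding genes. All minus-strand genes together took 1.01% and 1.06% of mitochondrial reads with doxycycline, against 1.46% and 1.41% in untreated cells. These shares were nearly equal within each group and did not overlap between groups (exact permutation p = 0.33).

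There were 10 tRNA genes that had fewer than 50 reads in every library, and they allow little to be said. MT-TK, for lysine, had 0 reads in all 4, which allows up to 3 reads a library, or 2.28 to 2.70 FPKM for a gene of 70 bases. MT-TF had 0 and 2 reads with doxycycline and 0 and 3 reads without, and with MT-TK it was left out of the tests for a mean below 1 FPKM. MT-TW had 2 and 2 reads with doxycycline and 4 and 2 reads without. MT-TQ had 11 and 17 reads against 7 and 6, and MT-TA had 10 and 10 against 5 and 8. MT-TT had 6 and 9 reads with doxycycline, against 10 and 13. For MT-TI, MT-TS1, MT-TD and MT-TE the groups overlapped, within a range of 3 to 42 reads.

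Tested over all 4 libraries, none of the 35 members passed, and nor did any of the 12029 genes tested (limma, percentage called 0%). At an unadjusted p under 0.05 there were 13 members, beside 18.3% of all genes, of which 10 were higher (6.47% of all genes) and 3 lower (11.9%). With a filter of a mean of at least 5 FPKM, 3 members passed, MT-TR, MT-TS2 and MT-TL2, each with an adjusted p of 0.0224, and so did 261 of all 6932 genes tested under that filter, 42 of them higher. Both doxycycline libraries exceeded both untreated ones for 14 of 35 members, beside 24.3% of all genes, and lay below them for 4 of 35, beside 28.9% of all genes. The 14 comprised both rRNA genes, 2 protein-coding genes and 10 tRNA genes, and the 4 were all tRNA genes.

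Each doxycycline library was also set against the untreated pair on its own. Such a test compares 1 library with 2, assumes that the lone library varies as the untreated pair does, and says nothing about the condition. On simulated data such fits called more unchanged genes than the threshold of 0.05 implies, so their calls and adjusted p are likely too generous. The simulation set the same relative spread beyond counting error for every gene and library. In these data the doxycycline libraries were less alike than the untreated ones (Pearson r 0.930 against 0.984), so the size of the excess here was not measured. In doxycycline replicate 1, 11 of 35 members passed, beside 13.3% of all genes. Of these, 7 rose (4.95% of all genes did) and 4 fell (8.39%). The 7 were MT-RNR1, MT-TM, MT-TG, MT-TR, MT-TH, MT-TS2 and MT-TL2, and the 4 were MT-ND6, MT-TL1, MT-TY and MT-TT. The largest rise was that of MT-TS2, by a log2 difference of 2.78 with a standard error of 0.26 (limma adjusted p = 2.79e-05).

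In doxycycline replicate 2, 17 of 35 members passed, beside 32.8% of all genes. Of these, 16 rose (12.9% of all genes did) and 1 fell, MT-TY (19.9%). Risen were both rRNA genes, 7 protein-coding genes (MT-ND2, MT-CO1, MT-CO2, MT-ATP8, MT-ATP6, MT-ND3 and MT-ND4L) and 7 tRNA genes (MT-TQ, MT-TM, MT-TR, MT-TH, MT-TS2, MT-TL2 and MT-TP). The largest rise here was that of MT-TR, by 2.15 with a standard error of 0.23 (limma adjusted p = 8.74e-05). Called in both were MT-RNR1, MT-TM, MT-TR, MT-TH, MT-TS2 and MT-TL2 as higher and MT-TY as lower, although both comparisons share the untreated pair. The share of all genes called alike in both was not computed, so this overlap is a description. MT-TT, named for replicate 1, and MT-TQ, named for replicate 2, had at most 17 reads in any library. With no filter on low levels 0 members passed in either comparison.

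**Figure D4:**
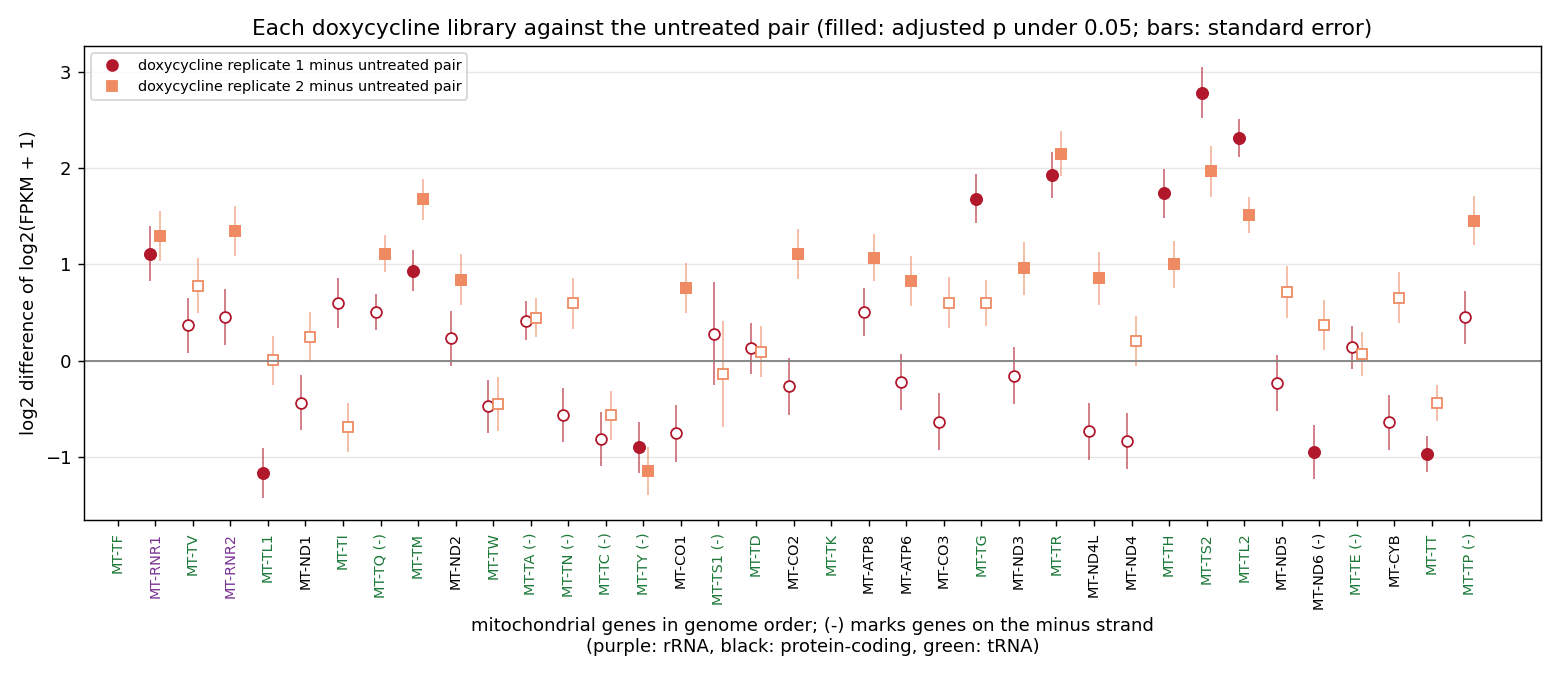
Difference of each doxycycline library from the untreated pair, on the log2(FPKM + 1) scale, by gene in genome order, with bars for the standard error of the fit and filled points for an adjusted p under 0.05. The protein-coding genes lie mostly below 0 in replicate 1 and above 0 in replicate 2, and MT-TR, MT-TH, MT-TS2 and MT-TL2 lie at 1.00 or above in both.

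Set against each other, the doxycycline libraries differed by at least 2-fold for 14 members. Replicate 2 was at least 2-fold higher for 12 of 35, beside 5.01% of all genes, and at least 2-fold lower for 2 of 35, MT-TG and MT-TI, beside 7.57%. Every one of the 13 protein-coding genes was higher in replicate 2, by ratios between 1.48 for MT-ATP8 and 3.01 for MT-ND4L, with a median of 2.16. MT-RNR1 differed least among the rRNA and protein-coding genes, by a ratio of 1.13. Between the untreated libraries 0 of 35 members were at least 2-fold higher in replicate 2 (1.98% of all genes) and 2 were at least 2-fold lower (1.27%), MT-TW and MT-TS1, which had at most 15 reads. These are comparisons of single libraries without a test.

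Nuclear copies of mitochondrial sequence can take reads from the true genes or give reads to them. Of 407 such genes by name, 5 passed the filter on low levels, and all 5 lie within a stretch of chromosome 1 (629062 to 634922, GRCh38). MTATP6P1 matched MT-ATP6 at 98.5% of 681 aligned bases and stood at 497 and 785 FPKM in doxycycline replicates 1 and 2, against 615 and 540 FPKM in untreated cells. MTND2P28 matched MT-ND2 at 98.4% and stood at 256 and 362 FPKM, against 249.5 and 268 FPKM. Their reads came to 6.69% and 5.10% of those of MT-ATP6 with doxycycline, against 7.05% and 6.29%, and to 6.52% and 6.03% of those of MT-ND2, against 7.20% and 8.29%.

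MTCO1P12 stood at 16.5 and 30.5 FPKM with doxycycline, against 41.5 and 36.6 FPKM in untreated cells. MTCO3P12 and MTND1P23 rested on 6 to 30 reads in every library. All copies together amounted to 0.922% and 0.645% of mitochondrial reads with doxycycline, against 0.890% and 0.844%. Among the genes with a copy kept, MT-ATP6 and MT-ND2 had the most reads in copies relative to their own. MTCO1P12 and MTND1P23 matched their genes more closely, at 98.7% and 99.4% of aligned bases. How many reads were placed in the wrong gene was not measured.

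Nuclear genes that copy mitochondrial DNA and make, process or degrade its RNA were followed as a list of 47 genes, 46 of which were tested. Over all 4 libraries 0 passed (limma), and 4 of 46 had an unadjusted p under 0.05, all lower with doxycycline, beside 18.3% of all genes in either direction and 11.9% lower. The list's median log2 difference was -0.06, beside -0.03 over all genes. Those with the lowest p were RNASEH1, a nuclease that removes RNA primers, and MRM1, a methyltransferase of the large-subunit rRNA. RNASEH1 stood at 6.09 and 6.33 FPKM in doxycycline replicates 1 and 2, against 10.3 and 10.5 FPKM in untreated cells (limma log2 difference -0.66, adjusted p = 0.145). MRM1 stood at 10.2 and 4.35 FPKM, against 17.1 and 12.8 FPKM (limma log2 difference -1.03, adjusted p = 0.233). Both were lower in both doxycycline libraries.

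Taken one library at a time, 3 of the 46 passed in doxycycline replicate 1, 1 higher and 2 lower, beside 13.3% of all genes. In replicate 2, 10 of the 46 passed, 1 higher and 9 lower, beside 32.8% of all genes. Neither count exceeded the share of all genes, and the excess of calls in lone-library fits noted above applies to them too. In replicate 1 the rise was that of PNPT1, a mitochondrial RNA-degrading enzyme, and the falls were those of TFAM, which packages mitochondrial DNA and starts its transcription, and of RNASEH1. PNPT1 stood at 27.2 and 12.8 FPKM in doxycycline replicates 1 and 2, against 11.7 and 11.0 FPKM in untreated cells, and TFAM at 10.7 and 15.9 FPKM against 22.5 and 19.9 FPKM. PNPT1 was above both untreated libraries in both doxycycline libraries, by far the most in replicate 1, and TFAM was below them in both.

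In replicate 2 the rise was that of NSUN3, which modifies the methionine tRNA, at 2.15 and 3.58 FPKM in doxycycline replicates 1 and 2, against 1.52 and 1.57 FPKM. The falls with the lowest p were those of MRM1 and of PUS1, a pseudouridine synthase, which stood at 8.22 and 4.61 FPKM with doxycycline, against 9.61 and 8.43 FPKM. POLRMT, the mitochondrial RNA polymerase, also fell in replicate 2. It stood at 22.2 and 14.1 FPKM in doxycycline replicates 1 and 2, against 29.9 and 25.2 FPKM in untreated cells, and it is named after its values were seen.

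**Figure D5:**
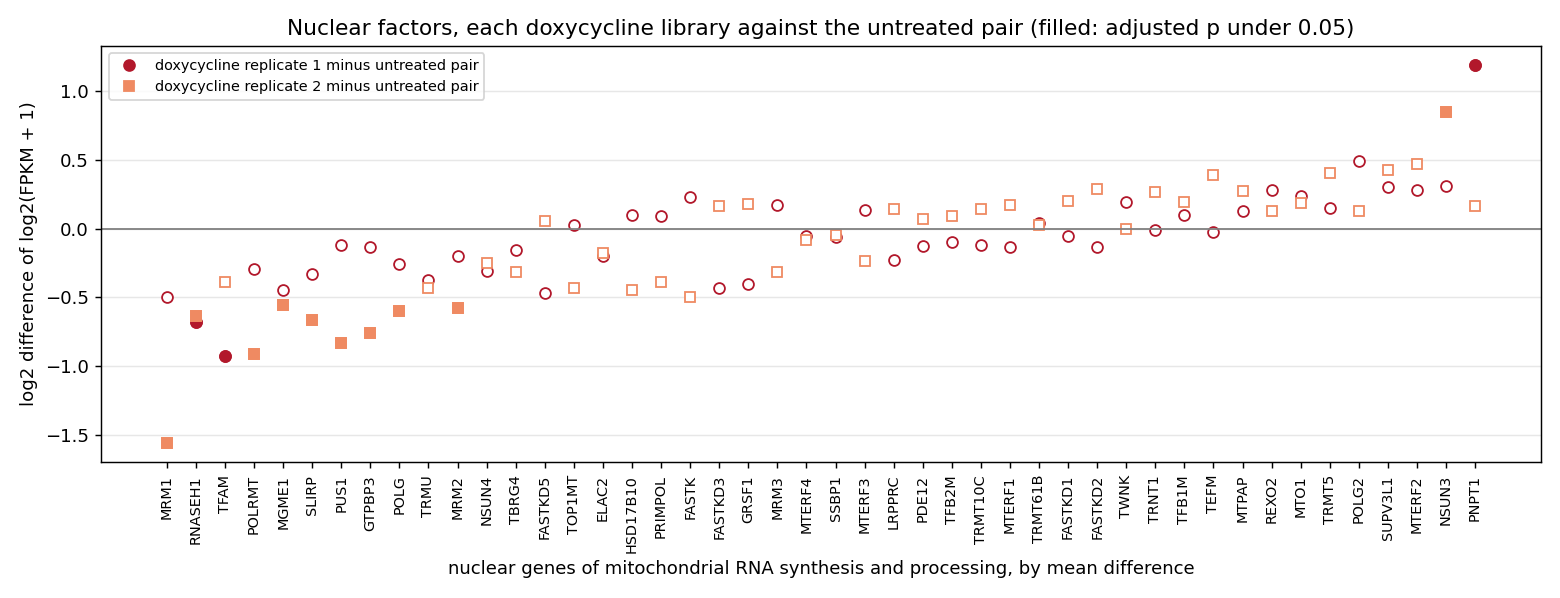
Difference of each doxycycline library from the untreated pair for the 46 nuclear genes tested, on the log2(FPKM + 1) scale, sorted by the mean of both differences, with filled points for an adjusted p under 0.05. TFAM and PNPT1 passed in replicate 1 alone, POLRMT, PUS1 and NSUN3 in replicate 2 alone, and RNASEH1 in both.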

How the data were processed

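RNA from 769-P cells was sequenced in 4 libraries, 2 with doxycycline and 2 untreated, grouped by their labels. The authors deposited FPKM per gene, per the file headers. The submitters' processing notes list 3 tools without their roles, HISAT2 (2.0.5), featureCounts (1.5.0-p3) and also limma. Strandedness and RNA selection are not given in the sources used here, nor is the build. All 58735 genes had coordinates identical to GENCODE release 29 on GRCh38.

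Multiplied by gene length, 100.0% of values came out as whole reads within 0.02 reads. The 12029 genes averaging 1 FPKM or more were tested on log2(FPKM + 1), a scale that understates the change of low genes, with limma-trend (limma 3.58.1, R 4.3.3), two-sided, with Benjamini-Hochberg adjustment over all of them and a threshold of 0.05. Differences are doxycycline minus untreated. Single values were compared by exact permutation of libraries. Shares rest on recovered reads, with 95% Wilson intervals. The fits were checked on simulated data, in which more of the calls than the threshold implies were unchanged genes, most of all with a lone doxycycline library. Anticodons were located by a search for the anticodon in a loop closed by a stem of at least 3 pairs. Copies were aligned with Biopython 1.88. Other software was Python 3.11.15, numpy 2.4.6, pandas 2.3.3, scipy 1.17.1 and matplotlib 3.10.9.

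All 37 mitochondrial genes were to be named, with USP35, the nuclear copies kept, and the 2 nuclear factors of lowest p among those past the threshold in each direction, or overall where none passed. Members and lists were chosen with earlier results of these data known. Alternatives were the pseudocount, the filter, the scaling, voom on recovered reads, a replicate block and leaving out each library.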

Additional observations from a re-analysis of the deposited data

How the results depend on the processing

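Over both doxycycline libraries, 0 of 35 mitochondrial genes passed. The count became 3 with a filter of a mean of at least 5 FPKM (261 of all 6932 genes). It became 1 with limma-voom on recovered reads and median-of-ratios sizes (MT-TR, beside 121 of all 12029). Leaving out a doxycycline library gave the same fits as the lone-library comparisons above. For doxycycline replicate 1 the count of 11 became 0 with no filter (0 of all 28798 genes) and 20 with the filter at 5 FPKM (1380 of all 6932). For replicate 2 the count of 17 became 11 with a pseudocount of 0.1 FPKM (3765 of all 12029), 0 with no filter (0 of all 28798) and 26 with the filter at 5 FPKM (2961 of all 6932). The nuclear factors had a count of 0, and leaving out a doxycycline library again gave the lone-library fits above. The cause of these shifts was not tested.

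The replicate numbers were not taken as pairs, since labels name no shared batch and there are only 2 pairs (correlation of same-number deviations 0.21). A fit with the replicate block called 784 of all genes, against 0 without it, 8 mitochondrial genes (7 higher, 1 lower) and 1 nuclear factor (MRM1).

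As sums of FPKM in place of reads, doxycycline minus untreated was 6.77 percentage points for the rRNA share, -6.37 for the protein-coding share, -0.393 for the tRNA share and -1.35 for the minus-strand share. The minus-strand difference was -0.346 without the tRNA genes. With single libraries left out, the rRNA difference stayed between 6.91 and 12.4 and the mitochondrial share of all reads between -0.915 and 6.28.

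The log2 difference over both doxycycline libraries turned positive, when FPKM were rescaled to reads outside the mitochondrial genome, for MT-ND1 (0.00023), MT-CO3 (0.079) and MT-TI (0.043). MT-CO3 was also positive under median-of-ratios scaling (0.025) and limma-voom with library totals (0.031) or median-of-ratios sizes (0.026), as was MT-TI under the last (0.00063). MT-TL1 in doxycycline replicate 2 became -0.016 with limma-voom on library totals. With single libraries left out, the difference changed sign for 17 genes. It ranged from -0.95 to 0.37 for MT-ND6, -0.83 to 0.21 for MT-ND4, -0.43 to 0.25 for MT-ND1 and -0.63 to 0.60 for MT-CO3. The range was -0.26 to 1.11 for MT-CO2, -0.64 to 0.66 for MT-CYB, -0.23 to 0.71 for MT-ND5 and -0.75 to 0.76 for MT-CO1. For MT-ND3 it was -0.15 to 0.96, for MT-ATP6 -0.22 to 0.83 and for MT-ND4L -0.73 to 0.86. Among tRNA genes it was -1.16 to 0.0074 for MT-TL1, -0.96 to 1.11 for MT-TS1, -0.69 to 0.60 for MT-TI, -0.56 to 0.60 for MT-TN, -0.26 to 0.48 for MT-TD and -0.11 to 0.32 for MT-TE. The alternatives gave 443 values for the mitochondrial genes, RNASEH1 and MRM1, those with a library left out or the replicate block included. Of these, 368 kept their direction and side of the threshold and 31 changed sign, most of them with a library left out. The others newly passed, mostly with a doxycycline library left out or with the replicate block. With all 4 libraries and no block, only MT-TR, MT-TS2 and MT-TL2 newly passed. With 2 libraries a group, small differences were not detectable. Even the log2 differences of 2.37 for MT-TS2 and 2.04 for MT-TR did not pass in the main test. For the 10 tRNA genes with fewer than 50 reads in every library, low depth was a further limit.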
